A study of Mus musculus with 27 samples.

Results

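The dystrophin-glycoprotein complex was described here through 8 of its genes: *Sgca*, *Sgcb*, *Sgcd* and *Sgce*, which encode α-, β-, δ- and ε-sarcoglycan, *Sspn* (sarcospan), *Dag1* (dystroglycan), *Dmd* (dystrophin) and *Dtna* (α-dystrobrevin). The genes were selected on these data, because *Sgca* was known to carry a region in both lists of decreased histone methylation, so the calls at *Sgca* are given as a description and no test was made on them. A region was assigned to a gene when it lay in the gene body or within 5 kb of one of its annotated transcription start sites (TSS). This gave 276 of the 358833 regions of the series, at 8 of the 20025 protein-coding genes with an assigned region.

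The study immunoprecipitated chromatin with antibodies to H3K4me1, H3K4me2 or H3K4me3, which are histone H3 carrying 1, 2 or 3 methyl groups on lysine 4, and sequenced the DNA (ChIP-Seq). Control hearts were *Tnnt2::Cre; Kmt2d fl/+; mTmG/+* and mutant hearts were *Tnnt2::Cre; Kmt2d fl/fl; mTmG/+*, both on C57BL/6 and both at embryonic stage E11.5. Each of the 2 genotypes was represented by 3 pools of 30 whole hearts, which made 18 libraries of a mark and 6 of input DNA, and 3 more libraries held KMT2D ChIP-Exo DNA of cardiomyocytes grown from embryonic stem cells. *Kmt2d* encodes a methyltransferase of H3 lysine 4. The decreased lists used here ask where deleting it in the myocardium lowered H3K4me1 or H3K4me2. They set no condition on H3K4me3, and no list of decreased H3K4me3 was used. Controls thus also carried Cre, the mTmG Cre reporter and 1 floxed allele. Cre was driven by the *Tnnt2* promoter, which is active in heart muscle cells, so endothelial, epicardial and blood cells in the pools keep *Kmt2d*. In such pools, fewer marked cells and less of a mark per cell cannot be told apart. The lists hold coordinates and no value per library, so the depth behind each region is unknown and no call can be set against the spread between pools. They also give no view of the floxed exons, so the deletion itself was not checked.

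Dystrophin links actin filaments under the muscle cell membrane to dystroglycan, which spans the membrane and binds laminin outside. The sarcoglycans and sarcospan form a membrane subcomplex that holds dystroglycan in place, and dystrobrevin binds dystrophin on the inner side together with the syntrophins. Loss of α-, β- or δ-sarcoglycan causes forms of limb-girdle muscular dystrophy, loss of dystrophin causes Duchenne muscular dystrophy, and the heart muscle is affected in several of these diseases. α-sarcoglycan is made mainly in striated muscle, whereas its relative ε-sarcoglycan is made in many tissues.

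*Sgca* (ENSMUSG00000001508.9, chromosome 11, 94824105 to 94837641, minus strand, NCBIM37) was the shortest of the 8 genes, at 13.5 kb, and had 4 regions. The region over its first TSS, chr11:94833346-94837905, was 4560 bp wide and stood in both the H3K4me1-decreased and the H3K4me2-decreased list. It reached from 264 bp upstream of that TSS into the gene, covered coding and untranslated exon sequence, and also held the inner TSS at 94834803 and 94834777. The remaining annotated TSS of the gene, that of the coding transcript Sgca-003 at 94831990, lay in no region, 1005 bp from the nearest. The next region upstream, chr11:94838806-94842265, was 3460 bp wide, lay outside the gene body and stood in the H3K4me2-decreased list only. It began 1165 bp before the TSS, held no TSS of a protein-coding gene, and was separated from the region over the TSS by 900 bp. The other 2 regions, of 140 bp over exons and of 2000 bp at the 3′ end, stood in neither list. Apart from the upstream region, the regions were also assigned to *Hils1*, a histone H1-like gene that lies within *Sgca*, and its TSS lay in none of them. The 4 regions covered 52.9% of the gene body and its TSS margins, the highest share among the 8 genes.

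**Figure D1:**
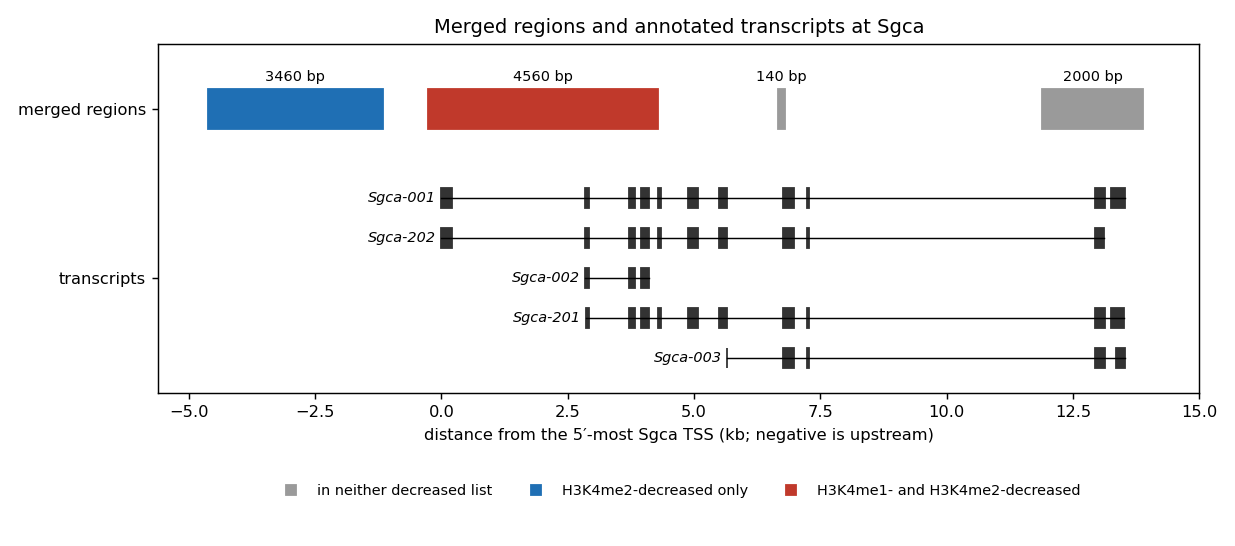
Merged regions (coloured blocks, with width in bp) and annotated transcripts (thin lines, exons as dark blocks) at *Sgca*, drawn by distance in kb from the 5′-most TSS, with negative values upstream. The 4560 bp region in both lists (red) spans the first exons and the 3460 bp region in the H3K4me2-decreased list (blue) lies upstream, while the regions of 140 and 2000 bp (grey) stood in neither list.

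The sequences at *Sgca* and at starts of 4 other genes are shown because they differ in the number of CG dinucleotides, which are printed in capitals. Each of the 6 stretches at a start runs from 200 bp upstream to 30 bp past the start of a transcript, read 5′ to 3′ on the gene's own strand of NCBIM37 (mm9). The stretch from the upstream *Sgca* region is its central 200 bp on the same strand as the gene.
Sgca first start, chr11:94837612-94837841, minus strand: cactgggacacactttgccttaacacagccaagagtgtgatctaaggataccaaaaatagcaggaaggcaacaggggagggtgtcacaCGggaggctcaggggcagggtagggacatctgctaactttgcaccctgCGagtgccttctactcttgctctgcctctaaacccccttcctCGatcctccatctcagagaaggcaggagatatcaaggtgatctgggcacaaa
Sgca upstream region, chr11:94840435-94840634, minus strand: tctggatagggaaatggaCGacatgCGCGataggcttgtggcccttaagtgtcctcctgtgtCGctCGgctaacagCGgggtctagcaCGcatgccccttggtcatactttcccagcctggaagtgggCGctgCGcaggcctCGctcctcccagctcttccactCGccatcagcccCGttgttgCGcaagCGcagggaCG
Sgcb, chr5:74038954-74039183, minus strand: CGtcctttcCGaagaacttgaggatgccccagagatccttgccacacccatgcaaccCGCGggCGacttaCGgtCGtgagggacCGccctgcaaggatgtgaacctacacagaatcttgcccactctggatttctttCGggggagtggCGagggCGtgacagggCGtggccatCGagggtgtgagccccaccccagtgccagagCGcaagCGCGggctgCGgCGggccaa
Dag1, chr9:108166226-108166455, minus strand: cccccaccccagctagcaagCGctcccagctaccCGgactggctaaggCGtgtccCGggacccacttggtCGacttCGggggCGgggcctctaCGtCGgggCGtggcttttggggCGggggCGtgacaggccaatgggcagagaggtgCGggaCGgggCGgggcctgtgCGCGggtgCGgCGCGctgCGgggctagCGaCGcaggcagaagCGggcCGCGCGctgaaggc
Sspn, chr6:145882442-145882671, plus strand: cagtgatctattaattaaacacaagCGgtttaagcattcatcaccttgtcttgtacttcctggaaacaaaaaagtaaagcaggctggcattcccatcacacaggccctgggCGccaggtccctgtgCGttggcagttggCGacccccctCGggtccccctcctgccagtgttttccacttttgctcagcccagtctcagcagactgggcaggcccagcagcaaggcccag
Dmd long transcript, chrX:80194042-80194271, plus strand: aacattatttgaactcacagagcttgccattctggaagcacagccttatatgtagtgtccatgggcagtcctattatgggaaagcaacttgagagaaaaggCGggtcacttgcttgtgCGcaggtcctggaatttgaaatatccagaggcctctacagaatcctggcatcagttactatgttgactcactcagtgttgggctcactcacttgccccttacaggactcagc
Dmd short transcripts, chrX:82293552-82293781, plus strand: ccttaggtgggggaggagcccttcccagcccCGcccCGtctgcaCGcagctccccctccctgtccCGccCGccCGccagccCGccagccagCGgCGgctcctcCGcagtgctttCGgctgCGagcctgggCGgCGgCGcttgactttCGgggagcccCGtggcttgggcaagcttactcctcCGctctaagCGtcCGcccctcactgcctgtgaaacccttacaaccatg
The *Sgca* start had 3 CG in 230 bp, whereas *Sgcb* had 18 and *Dag1* had 27. The centre of the upstream *Sgca* region had 15 CG in 200 bp, more than the start of the gene itself. That centre does not stand for the whole upstream region of 3460 bp. Over the whole region, the number of CG over that expected from C and G content was 0.269. The value was 0.180 for the region over the TSS. The upstream value stood at percentile 19.9 of merged regions with a protein-coding TSS. The *Sspn* start had 5. The long *Dmd* transcript, which encodes full-length dystrophin, had 2 CG at its start, and the short *Dmd* transcripts, which start near the 3′ end of the gene, had 20.

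Across the whole merged list, 0.761% of regions stood in the H3K4me1-decreased list and 1.87% in the H3K4me2-decreased list. Of the 276 regions at the 8 genes, 1 stood in the first list (0.362%) and 8 in the second (2.90%). The region in the H3K4me1-decreased list was the one over the *Sgca* TSS, which was also among the 8. The share called varied with width: for H3K4me2 it was 0.828% under 200 bp, 0.258% from 200 to under 500 bp, and 27.1% at 8000 bp or more. At the share of each width class in the whole list, regions as wide as the 276 would have given 1.87 regions in the H3K4me1-decreased list and 4.21 in the H3K4me2-decreased list. Of merged regions of 2000 bp or more, 11.1% stood in the H3K4me2-decreased list, and of the 25 such regions at the 8 genes, 5 did and 20 stood in neither list. Outside *Sgca*, the 7 other genes had 6 regions in the H3K4me2-decreased list and 0 in the H3K4me1-decreased list.

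By gene, 5 of the 8 had a region in the H3K4me2-decreased list, against 28.7% of protein-coding genes with an assigned region. They were *Sgca* and *Sgcd* with 2 regions each, *Dtna* with 2, and *Dag1* and *Sspn* with 1 each. A region in the H3K4me1-decreased list was assigned to 1 of the 8, against 7.08% of genes. Since long genes collect more regions and the list calls were used to select the genes, nothing is read from these shares. *Sgcb*, *Sgce* and *Dmd* had no region in either list.

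The calls at start sites were counted separately. All 8 genes had a TSS inside a merged region, as did 15752 of the 20025 protein-coding genes with an assigned region. In 5 of them a TSS lay in an H3K4me2-decreased region, against 29.2% of the 15752 protein-coding genes with a TSS in a merged region. In 1 gene, *Sgca*, a TSS lay in an H3K4me1-decreased region, against 1.29%, and the same region was in both lists, against 0.133%. The 8 genes had 43 annotated TSS positions, of which 26 lay in a region (60.5%), against 66.3% of all annotated TSS of protein-coding genes. Of the 43, 9 lay in an H3K4me2-decreased region, against 19.0% of all annotated TSS of protein-coding genes. Placed along the genes, 13 regions held a TSS and 5 of these were H3K4me2-decreased, 21 overlapped exons without a TSS and 0 were decreased, 234 were intronic and 2 were decreased, and 8 lay outside the gene body and 1 was decreased. In the whole series 22.5% of merged regions with a protein-coding TSS stood in the H3K4me2-decreased list, and 0.790% of those without one.

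**Figure D2:**
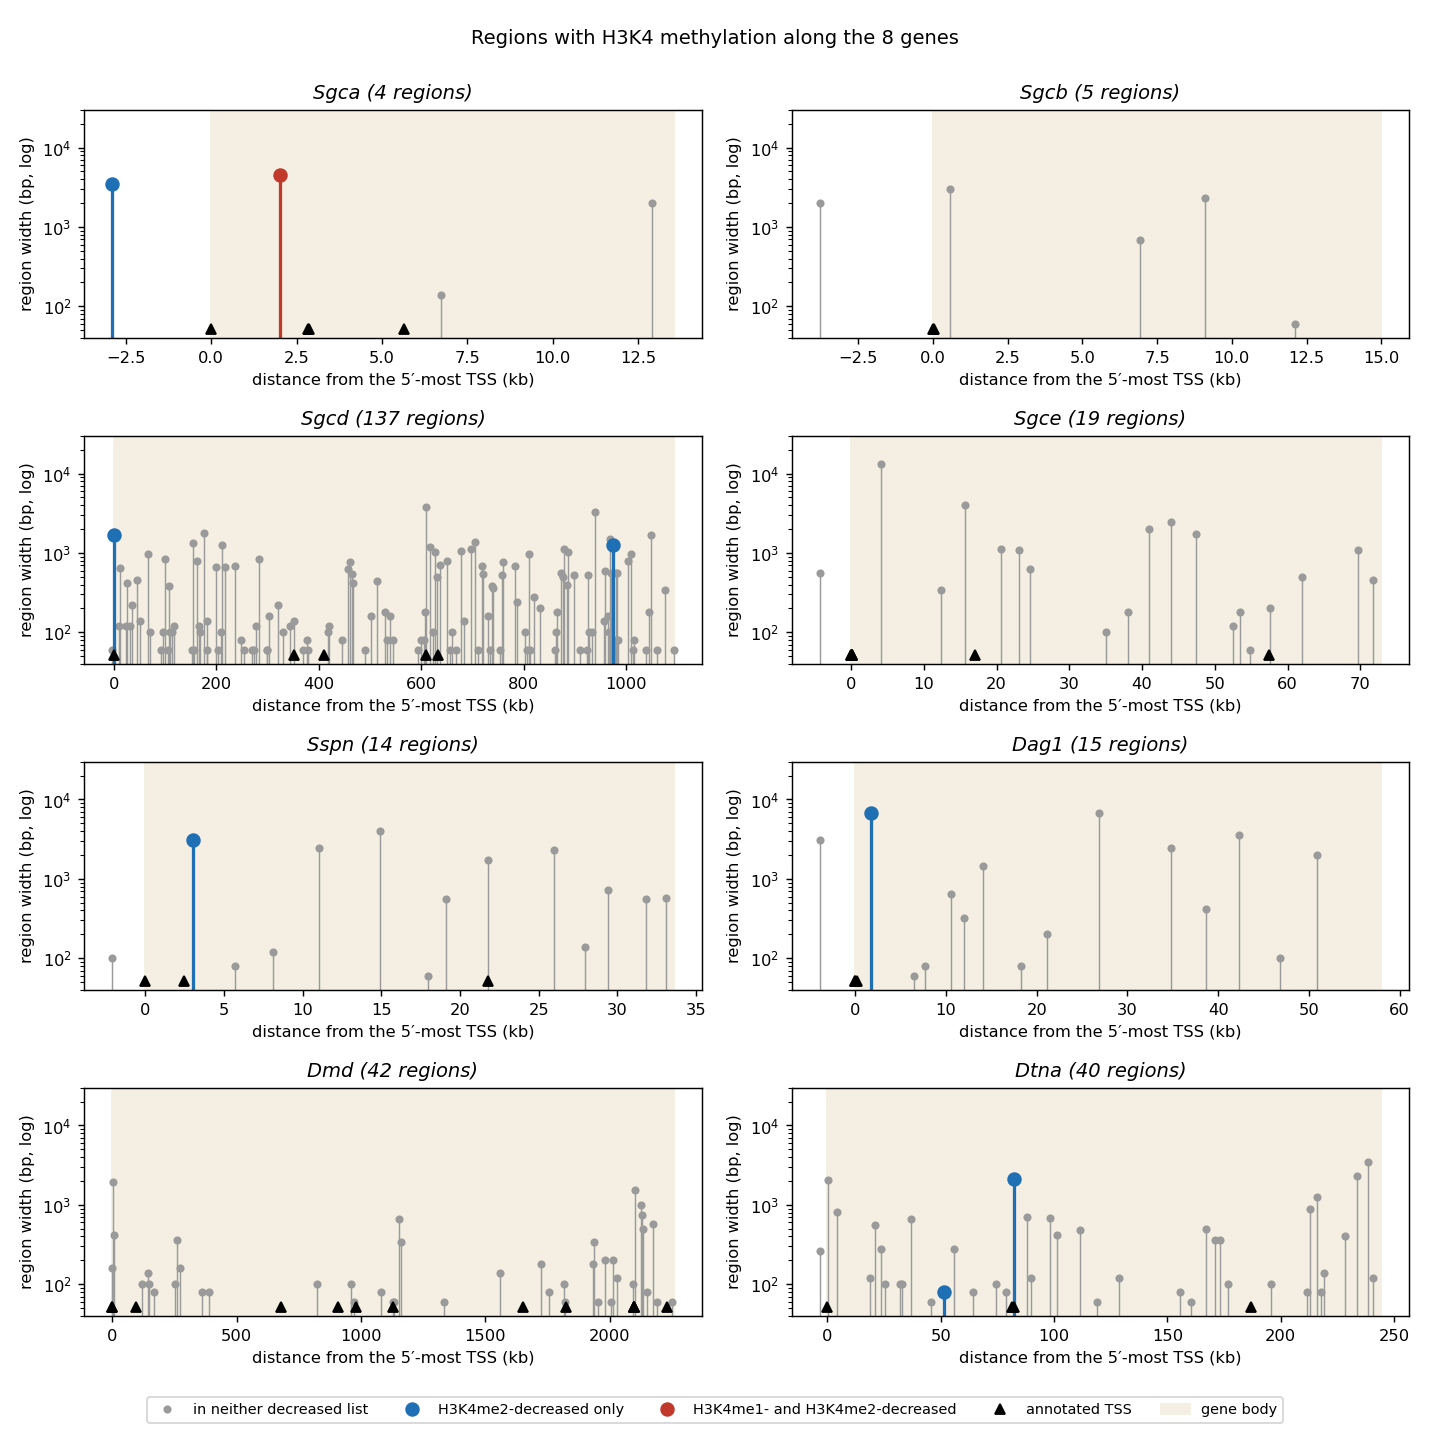
Each stem is a merged region at one of the 8 genes, placed by the distance of its centre from the 5′-most TSS (kb) and drawn to its width (bp, log axis). Black triangles are annotated TSS and the shaded band is the gene body. Red marks the 1 region in both decreased lists, at *Sgca*, blue marks the 7 regions in the H3K4me2-decreased list only, and grey regions are in neither list.

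The region over the *Sgca* TSS was set beside the other regions of its kind. In the whole series 172 regions stood in both decreased lists, with a median width of 140 bp, and 20 of them held a TSS of a protein-coding gene. Of these 20, 16 were at least 4000 bp wide and 14 at least 8000 bp. Among the 4901 TSS regions of at least 4000 and under 8000 bp, 32.2% stood in the H3K4me2-decreased list, 1.35% in the H3K4me1-decreased list and 2 regions in both. These 2 were at *Sgca* and at *Kcnj11*, which encodes a pore subunit of ATP-sensitive potassium channels and whose region was 5160 bp wide. The next nearest in width were the regions at *Fam189a1* and *Gramd1b*, each of 3340 bp, and at *Smyd3*, of 2740 bp. They were followed by a region of 2140 bp that held a TSS of *Syne1*, encoding a nuclear envelope protein that links to the cytoskeleton, and of *Gm10097*. Likeness was measured by log2 width among the 20 regions, and it says nothing of shared function.

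In base composition the *Sgca* region stood low in CG. The observed number of CG over the number expected from its C and G content was 0.180, at percentile 6.46 of the 17752 merged regions with a protein-coding TSS, whose median was 0.429. Its GC content, 52.4%, was close to their median of 50.5%. H3K4me2-decreased TSS regions had a median CG ratio of 0.500, and the 20 TSS regions in both lists had a median of 0.286. Of those 20, *Mical2* had the lowest ratio, 0.176, and *Sgca* the next. *Mical2* was named after its value was seen.

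**Figure D3:**
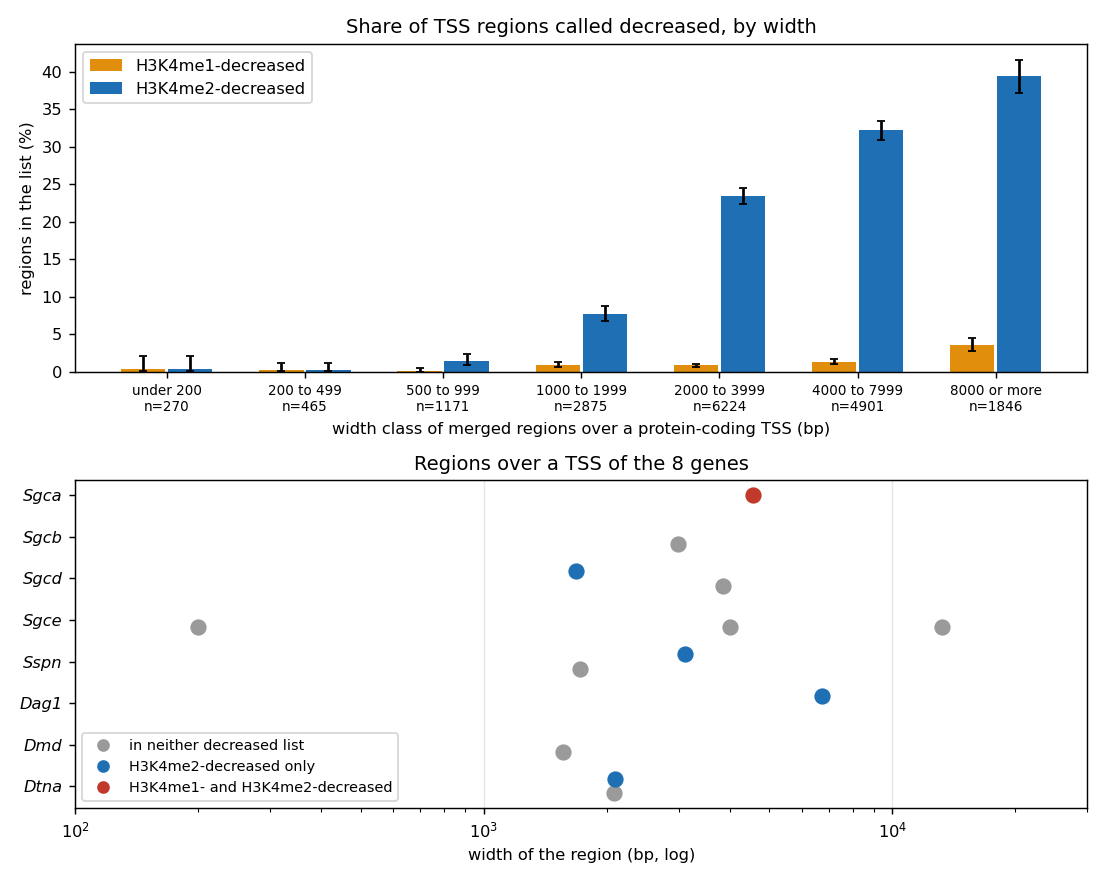
Top, share of merged regions over a protein-coding TSS that stood in the H3K4me1-decreased (orange) or H3K4me2-decreased (blue) list by width class, with 95% Wilson intervals that cover counting error only. Bottom, widths of the 13 regions over a TSS of the 8 genes (log axis), with points of different calls offset vertically. The H3K4me2 share was 7.72% from 1000 to under 2000 bp and 39.4% at 8000 bp or more, and the widest TSS region of the 8 genes, 13240 bp at *Sgce*, stood in neither list.

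Of the other sarcoglycan genes, *Sgcb* and *Sgce* had no region in either list. *Sgcd* had 2 in the H3K4me2-decreased list, as *Sgca* did, and differed from *Sgca* in having none in the H3K4me1-decreased list. *Sgca* was selected for its region in both lists. *Sgcb* (chromosome 5, 74023988 to 74038983, minus strand), whose product binds δ-sarcoglycan in the core of the subcomplex, is close to *Sgca* in length and had 5 regions. Its 2 TSS lay in a region of 2980 bp (74036926 to 74039905) that stood in neither list. The regions of 2340, 680 and 60 bp over its exons and of 1980 bp upstream were not called either, and the upstream one held the TSS of the neighbouring gene *Spata18*. *Sgca* and *Sgcb* thus had similar numbers of regions, 4 and 5. The regions covered 52.9% and 40.2% of the gene with its margins, and the numbers called were 2 and 0.

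*Sgcd* (chromosome 11, 46709755 to 47802471, minus strand) encodes δ-sarcoglycan and spans 1093 kb. It had 137 regions, of which 91 were under 500 bp wide and 130 were intronic, and their median width was 160 bp. The first TSS of the gene, at 47802471, belongs to the noncoding transcript Sgcd-004 and lay in an H3K4me2-decreased region of 1680 bp (47801406 to 47803085). That region had the highest CG ratio among the TSS regions of the 8 genes, 0.661. The transcript with the longest coding sequence, Sgcd-002, starts at 47193024 in a region of 3840 bp (47190486 to 47194325) that was in neither list and had a CG ratio of 0.253. A second H3K4me2-decreased region, of 1240 bp, lay in an intron (46827566 to 46828805), 340070 bp from the nearest *Sgcd* TSS. Its CG ratio was 0.047. The remaining 3 TSS of the gene lay outside any region, at 986, 2611 and 8682 bp from the nearest.

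*Sgce* (chromosome 6, 4624350 to 4697204, minus strand), an imprinted gene expressed from the paternal allele, had 19 regions and none in either list. The region over 6 of its 8 TSS was 13240 bp wide (4686446 to 4699685), wider than any other region at the 8 genes. It also held the TSS of *Peg10*, the imprinted gene that lies head to head with *Sgce*, so the marks at the 2 genes cannot be told apart in it. Merged TSS regions of 8000 bp or more stood in the H3K4me2-decreased list in 39.4% of cases, and this one did not. The other *Sgce* TSS lay in regions of 4000 and 200 bp, both uncalled.

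*Sspn* (chromosome 6, 145880161 to 145913743, plus strand), whose product is a membrane protein that associates with the sarcoglycans, had 14 regions and is 33.6 kb long. With its margins this was 36.3 regions per 100 kb, at percentile 95.2 of protein-coding genes, whose median was 20.0, and the highest density among the 8. The TSS of Sspn-001, its longest coding transcript, lay in an H3K4me2-decreased region of 3100 bp (145881626 to 145884725) that extended into coding sequence. The widest region of the gene, an intronic one of 4060 bp (145893046 to 145897105), was in neither list, and neither was the region of 1720 bp over the TSS of Sspn-003. The TSS of Sspn-002 lay 1465 bp outside a region.

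*Dag1* (chromosome 9, 108108286 to 108166255, minus strand) encodes the precursor that is cleaved into α- and β-dystroglycan. Its 3 TSS lay in 1 H3K4me2-decreased region of 6720 bp (108161206 to 108167925), and that region covered untranslated sequence and no coding sequence. A second region of the same width, 6720 bp, lay in an intron (108136046 to 108142765) and was in neither list. The 2 regions thus had equal width and different calls. Of the other 13 regions, 4 were between 2000 and 3620 bp wide, and none was called. Just beyond the 5 kb margin, a region of 1880 bp (108173886 to 108175765), 7631 bp from the TSS, stood in the H3K4me1-decreased list.

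*Dmd* (chromosome X, 80194209 to 82451480, plus strand) encodes dystrophin and is 2257 kb long. It had 42 regions, or 1.86 per 100 kb, at percentile 0.404 of protein-coding genes, and they covered 0.514% of the gene with its margins. Of the 42, 35 were under 500 bp, and the longest stretch without a region was 434 kb. The TSS of Dmd-001, whose 79 exons code for 3678 residues, lay 64 bp outside the nearest region, an uncalled one of 1920 bp (80194306 to 80196225) that begins inside the transcript and was the widest at the gene. The TSS of the short transcripts at 82293752, which encode up to 617 residues from the 3′ end of the gene, lay in an uncalled region of 1560 bp (82293446 to 82295005). Of the 14 TSS, 10 lay outside any region, at up to 145086 bp. *Dmd* had no region of 2000 bp or more, and below that width 0.258% to 1.40% of the merged regions in a width class stood in the H3K4me2-decreased list. Among merged regions over a protein-coding TSS, like that of 1560 bp, the share was 7.72% from 1000 to under 2000 bp.

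*Dtna* (chromosome 18, 23573916 to 23818215, plus strand), for the dystrophin-binding protein α-dystrobrevin, had 40 regions with a median width of 200 bp. The TSS shared by 6 transcripts, at 23573916, lay in a region of 2080 bp that was in neither list. An inner TSS, that of Dtna-209 at 23656091, lay in an H3K4me2-decreased region of 2100 bp (23655426 to 23657525). At nearly equal width, the inner start was called and the first start was not. A second H3K4me2-decreased region at the gene was intronic and 80 bp wide (23625346 to 23625425). The widest region, of 3480 bp near the 3′ end, was uncalled.

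**Figure D4:**
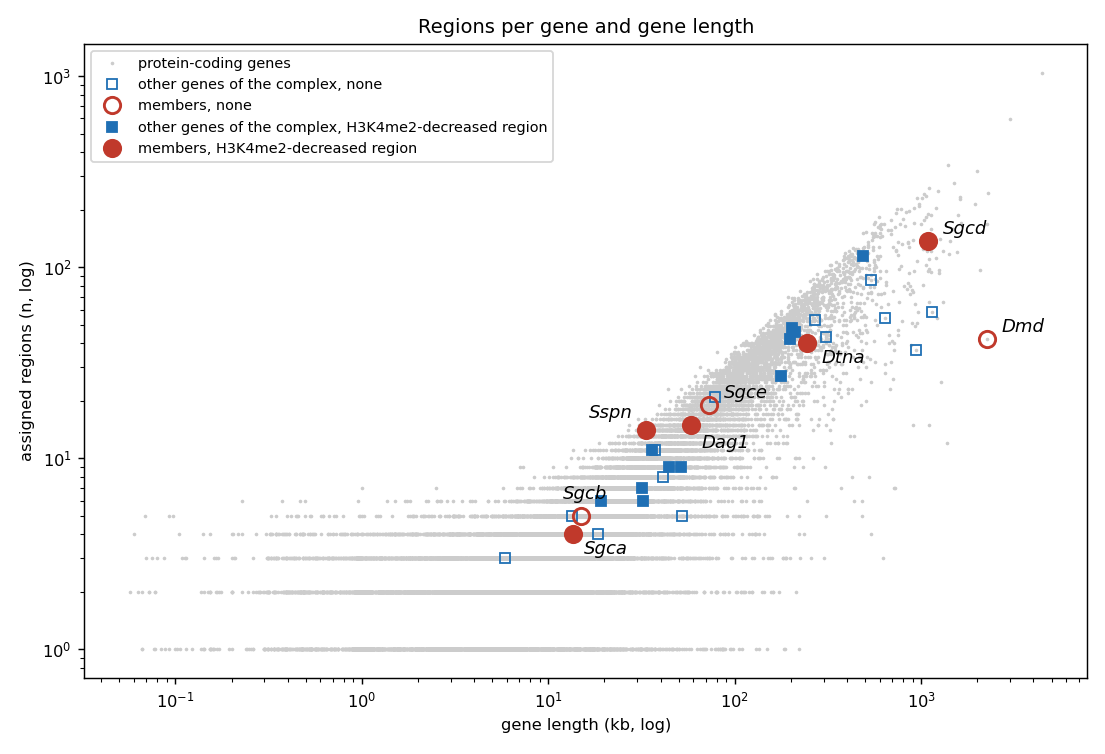
Number of assigned regions against gene length in kb (both axes log) for protein-coding genes (grey dots), the 8 genes (red circles) and other genes of the complex (blue squares); filled symbols have at least 1 H3K4me2-decreased region. *Sgcd*, with 137 regions, and *Dmd*, with 42, are the longest of the 8, and *Dmd* lies below *Sgcd* although it is longer.

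The windows around all 43 TSS, from 250 bp upstream to 50 bp past the start, were compared by their CG count. Over 70051 such windows of protein-coding genes the median was 10, with quartiles of 4 and 23. The 26 windows of the 8 genes whose TSS lay in a region had between 3 and 54 CG with a median of 17.5, and the 17 whose TSS lay outside had between 1 and 11 with a median of 3. Windows of all protein-coding genes gave medians of 19 inside and 3 outside a region. The 3 *Sgca* windows inside the region over its TSS each had 4 CG (percentile 30.2). The window of Sgca-003, whose TSS lay outside any region, had 11 CG (percentile 53.0). The 3 *Dag1* windows had 33 to 54.

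**Figure D5:**
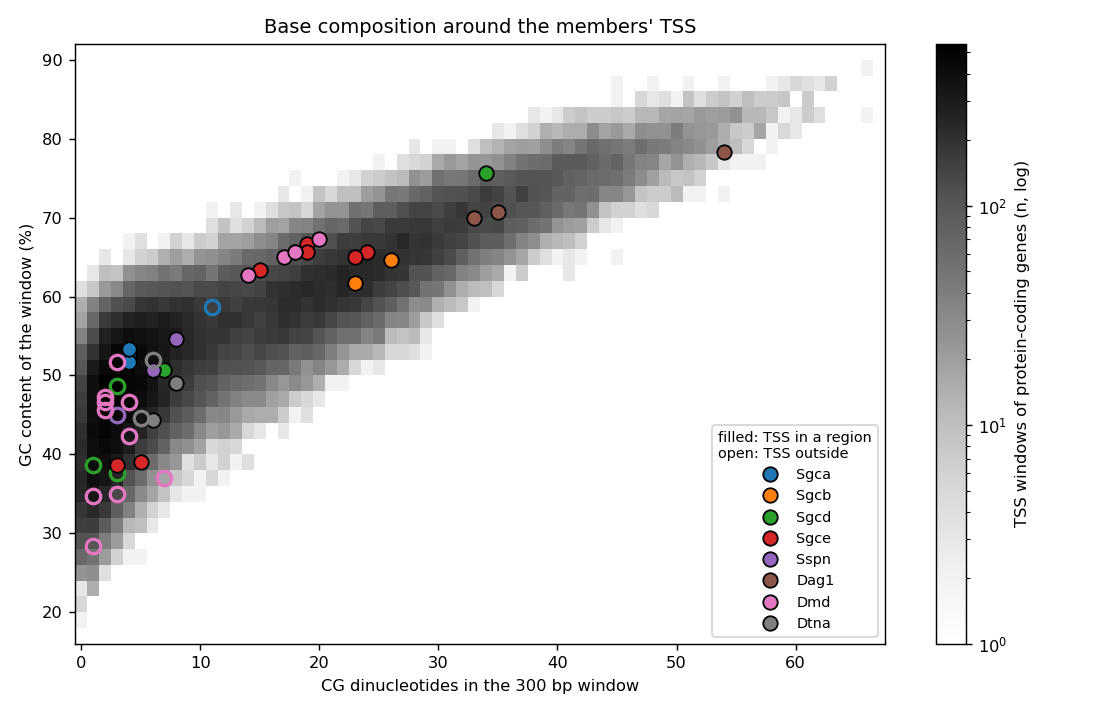
GC content (%) against the number of CG dinucleotides in the 300 bp window at each of the 43 TSS of the 8 genes, coloured by gene and filled where the TSS lies in a merged region, over all windows of protein-coding genes (grey scale, log). The *Sgca* starts inside the region over its TSS sit at 4 CG, *Dag1* starts at 33 to 54.

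Short motifs were searched in the same windows on both strands. The E-box CANNTG, bound by basic helix-loop-helix factors, occurred in 70.3% of all windows, the GC box GGGCGG in 40.3%, the GATA site in 26.4%, the TATA box TATAAA in 11.3%, the MEF2 site in 2.57% and the CArG box, bound by serum response factor, in 1.38%. The first *Sgca* start had 2 E-boxes and no other motif of this list. The start of Dmd-001 had 3 E-boxes and 1 CArG box, and the short *Dmd* transcripts had 5 GC boxes at 82293752. *Dag1* had 3 GC boxes at each of its starts, *Sgcb* had 1 GC box at each and 1 TATA box at its first start, and Sspn-001 had 1 E-box. A match is a description of the letters and not evidence of a bound site.

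Other genes of the complex were read from a list of 25, of which 24 were found in the annotation, all with a TSS in a region. Of these, 11 had a region in the H3K4me2-decreased list, against 28.7% of protein-coding genes with an assigned region. In the H3K4me1-decreased list 3 had one, against 7.08%, and 12 had none in either list. In 7 a TSS lay in an H3K4me2-decreased region, against 29.2% of genes, and in 0 a TSS lay in an H3K4me1-decreased region, against 1.29%. Of their 713 regions, 15 were H3K4me2-decreased and 4 H3K4me1-decreased, against 1.87% and 0.761% of the merged list. The 11 genes with an H3K4me2-decreased region became 8 when only regions of at least 200 bp were kept. Long genes collect more regions, so nothing is read from the shares by gene. Among genes that glycosylate dystroglycan, an H3K4me2-decreased region lay over a TSS of *Pomgnt1* (3740 and 3000 bp, with a further one of 5360 bp in an intron), *B3galnt2* (4380 bp) and *Tmem5* (3020 bp). The 3740 bp region also held the TSS of *Rad54l*, and those of 3000 and 5360 bp a TSS of *1520402A15Rik*. *Agrn*, whose product agrin binds dystroglycan outside the cell, had one of 14140 bp that also held TSS of *Isg15* and *AW011738*. *Sntg2*, a syntrophin gene, had one of 1180 bp.

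*Dysf*, which encodes the membrane repair protein dysferlin, had wide regions in both lists, but not the same region. The one over a TSS, of 4080 bp, was H3K4me2-decreased, and one of 3060 bp over an inner exon was H3K4me1-decreased. The calls at *Utrn*, *Dtnb*, *Nos1* and *Sgcz* and the further ones at *Sntg2* and *Dysf* were in regions of 60 to 120 bp. *Utrn* encodes utrophin, the relative of dystrophin, and its call was H3K4me2 in an intron. *Sgcz*, encoding ζ-sarcoglycan, had 2 intronic regions in the H3K4me1-decreased list.

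The tissue was checked by regions over the TSS of marker genes. All 5 heart muscle markers had one, from 4540 to 16680 bp wide, as did 3 of 3 endothelial, 2 of 2 epicardial and 2 of 2 blood markers. Skeletal muscle markers had one at 4 of 5 genes, liver markers at 1 of 2, 180 bp wide, and brain markers at 2 of 2, so a region over a TSS does not by itself show that a cell type was present. A decreased region over a TSS was present at the markers *Actc1* (heart muscle, H3K4me2) and *Ckm* (skeletal muscle, H3K4me1), among others. The part of each cell type in the *Sgca* calls was not tested.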

How the data were processed

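The authors sequenced ChIP-Seq libraries of H3K4me1, H3K4me2 and H3K4me3 from control and mutant E11.5 hearts, called peaks and merged them over replicates and marks. The deposited lists hold region coordinates (chromosome, start and end, a unit named other here) for the merged peaks and for regions the authors called decreased in H3K4me1 or H3K4me2. The submitters' processing notes name CASAVA 1.8.2, FastQC, Bowtie, Bowtie2, SAMtools and mm9. The decreased lists were cut at a false discovery rate, and the peak caller and the test behind them are not given in the sources used here. Regions with changed H3K4me3 and KMT2D ChIP-Exo were not analysed here.

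Regions were assigned with GENCODE vM1 on NCBIM37 (Python 3.11.15, pandas 2.3.3), in 1-based coordinates, within a 5 kb margin, and the last region of all 21 chromosomes ended inside that assembly. A decreased region was matched by identical coordinates, and each of the 2730 and 6699 decreased regions had a match. The deposited H3K4me2-decreased list and its overlap with the H3K4me1 list are longer than the study's text states, for a reason not given in the sources used here, and the lists were used as deposited. The assignment was checked on made-up genes of known position. All results are descriptions of the authors' calls. The 8 genes and all gene lists were chosen with earlier results of these data known. Genes named are the 8, other complex genes with a decreased region, genes sharing a TSS region or a decreased region with the 8, and the 5 non-member genes nearest to *Sgca* in width among TSS regions of both lists, with 1 tie. Some of these genes enter the counts but are not named here. *Gtdc2* was not matched by that symbol. Minimum widths, margins of 1 and 10 kb, assignment and matching by other overlaps, joining of regions, starts within 1 kb, and fewer transcripts per gene were tried as alternatives. Groups were taken from sample titles.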

Additional observations from a re-analysis of the deposited data

How the results depend on the processing

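Of 54 alternative values over 11 results, 46 were unchanged within a factor of 1.5, or within the result's own limit, and 8 moved. The 276 regions at the 8 genes became 134 at a minimum width of 200 bp and 100 at 500 bp, as 63.8% of them are under 500 bp wide. With a 10 kb margin, genes with an H3K4me1-decreased region and such regions both went from 1 to 2, the second being the 1880 bp region beyond *Dag1*. Genes with a TSS in an H3K4me2-decreased region went from 5 to 3 when 1 TSS per gene, that of the longest coding transcript, was used, which leaves out the called starts at *Sgcd* and *Dtna*. The *Sgca* region became 8920 bp when regions at gaps of at most 1 kb were joined. Its width stood at percentile 97.0 of merged regions, at 69.2 of TSS regions and at 83.1 of regions in both lists. No paired analysis was possible because the results come from no test and the lists pool the libraries. For the same reason no pool could be left out and no stricter threshold set. A region in neither list is not shown to be unchanged.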
